A study of Mus musculus with 18 samples.

Results

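The genes described here are 8 members of the Notch pathway that are known from arteries: the receptors Notch1, Notch2 and Notch3, the ligand Jag1, and the target genes Hes1, Hey1, Hey2 and Heyl. They were taken by symbol from a table of 35655 genes. Of these genes, 10312 passed a filter on low counts and were tested, and 8 of 8 members passed it. The tissue was carotid artery of male wild-type C57/BL6 mice without a high-fat diet, whose left carotid was injured with a wire at 11 weeks of age while the right carotid was used as control. Frozen sections were laser-dissected to collect vessel wall with the outer elastic lamina and the neointima, from up to 70 sections per library, and the 3′ ends of transcripts were sequenced. Day 0, labelled as before injury, had 4 libraries, as did days 7 and 21 after injury, and days 14 and 28 had 3 each. The paper speaks of pooled neointima samples, and the sources used here do not state whether each library came from a separate mouse, so p-values measure the spread between these libraries only. They do not state either whether day 0 vessels came from mice that were never injured or were right carotids.

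Notch receptors are cut at the cell surface when a ligand on a neighbouring cell binds them, and the freed inner part enters the nucleus, joins the DNA-binding protein RBPJ and turns on target genes. The main targets, the Hes and Hey families, encode repressors of transcription. In arteries, Notch3 is the receptor best known from smooth muscle cells, Jag1 is a ligand of endothelial and smooth muscle cells, Dll4 is the ligand of arterial and sprouting endothelium, and Heyl and Hey2 are targets known from vascular smooth muscle.

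All values are CPM, a gene's count scaled to a library of 1000000 counts after TMM normalisation. CPM of different genes are not compared with each other, because the capture of their 3′ ends can differ. Libraries held 440675 to 878310 counts, so that 3 counts corresponded to between 3.55 and 6.98 CPM, and the biological coefficient of variation was 0.449. Changes are log2 fold changes from edgeR's quasi-likelihood test, and a gene counted as called where its p, adjusted by Benjamini-Hochberg over the 10312 genes, was under 0.05. The markers of contractile smooth muscle were present in every library, as a sum of 18 genes, with 49964 to 54944 CPM on day 0, 2895 to 10318 on day 7, 11707 to 34564 on day 14, 13118 to 31091 on day 21 and 32918 to 41607 on day 28. Of the 17 genes of that list that were tested, 16, 9, 11 and 1 were lower than on day 0 on days 7, 14, 21 and 28 in turn, and 0 were higher. The sum over 16 macrophage genes was 145 to 582 CPM on day 0, 5930 to 8395 on day 7, 1585 to 3704 on day 14, 2308 to 3996 on day 21 and 989 to 1363 on day 28. In whole tissue, fewer cells of a type and less RNA per cell cannot be told apart, and the part of cell composition in any result was not tested.

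For 3 target genes, Hes1, Hey2 and Heyl, the 250 bases before the start of the canonical transcript are shown (genome GRCm39, GENCODE vM39), because target genes are the ones whose promoters RBPJ is known to bind. The letters TGGGAA, the core of the motif that RBPJ binds, and its reverse complement TTCCCA are in capitals.
Hes1, chr16:29883877-29884126, plus strand: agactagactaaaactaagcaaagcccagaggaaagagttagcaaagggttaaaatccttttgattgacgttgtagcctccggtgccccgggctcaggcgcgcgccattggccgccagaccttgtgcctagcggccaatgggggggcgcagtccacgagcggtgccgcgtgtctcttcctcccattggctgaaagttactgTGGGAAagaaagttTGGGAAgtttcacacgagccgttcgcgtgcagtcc
Hey2, chr10:30718829-30719078, minus strand: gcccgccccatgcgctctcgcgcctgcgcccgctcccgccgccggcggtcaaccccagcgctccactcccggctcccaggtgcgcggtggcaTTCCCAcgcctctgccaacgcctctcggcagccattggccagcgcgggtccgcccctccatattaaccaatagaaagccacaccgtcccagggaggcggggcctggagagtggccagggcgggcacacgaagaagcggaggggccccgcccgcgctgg
Heyl, chr4:123127099-123127348, plus strand: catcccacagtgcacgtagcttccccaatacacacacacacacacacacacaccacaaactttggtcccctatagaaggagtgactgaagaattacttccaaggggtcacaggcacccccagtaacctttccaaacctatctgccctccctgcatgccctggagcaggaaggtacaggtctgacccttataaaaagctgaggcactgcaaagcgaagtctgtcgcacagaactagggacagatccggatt
In the Hes1 window the core was found 2 times on the gene's strand, at 49 to 44 and at 35 to 30 bases before the start, the first of them within the longer form GTGGGAA. Hey2 held 1 match on the other strand, at 158 to 153 bases before the start, which was also part of the longer form. The Heyl window held no match, and neither did those of Notch1, Notch2, Notch3 and Jag1. Searched on both strands, the longer form was present in 5.48% of the same windows of 21770 protein-coding genes and the 6-letter core, which the longer form contains, in 22.7%. A match is a description of the letters only.

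The receptors lie on 3 chromosomes, Notch1 at chr2:26347915-26406675 on the minus strand, Notch2 at chr3:97920800-98057677 on the plus strand and Notch3 at chr17:32339794-32385893 on the minus strand. Jag1 lies at chr2:136923373-136958693 on the minus strand. The target genes are Hes1 at chr16:29882134-29886643 (plus strand), Hey1 at chr3:8726956-8732385 (minus), Hey2 at chr10:30708350-30718828 (minus) and Heyl at chr4:123127349-123143682 (plus). Exons of Notch1, Notch3, Jag1, Hes1 and Hey1 overlap those of other genes on the opposite strand, those of Notch2 overlap Gm42820 on the same strand, and those of Hey2 and Heyl overlap none. The use of strand in the counting is not given in the sources used here.

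Of the members, 3 differed between the days and 5 were not shown to. Notch3 fell on day 7 and rose above its day 0 level by day 21, Jag1 rose by day 21, and Heyl fell on day 7 and stood above its day 7 level again on days 21 and 28. In a test of any difference between the 5 days (edgeR F test, Benjamini-Hochberg adjusted over all genes), Notch3 (adjusted p = 7.98e-06), Heyl (0.000826) and Jag1 (0.00215) were called, which is 3 of 8 members against 18% of all genes tested. The other 5 members had adjusted p between 0.236 and 0.955 in the same test.

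**Figure D1:**
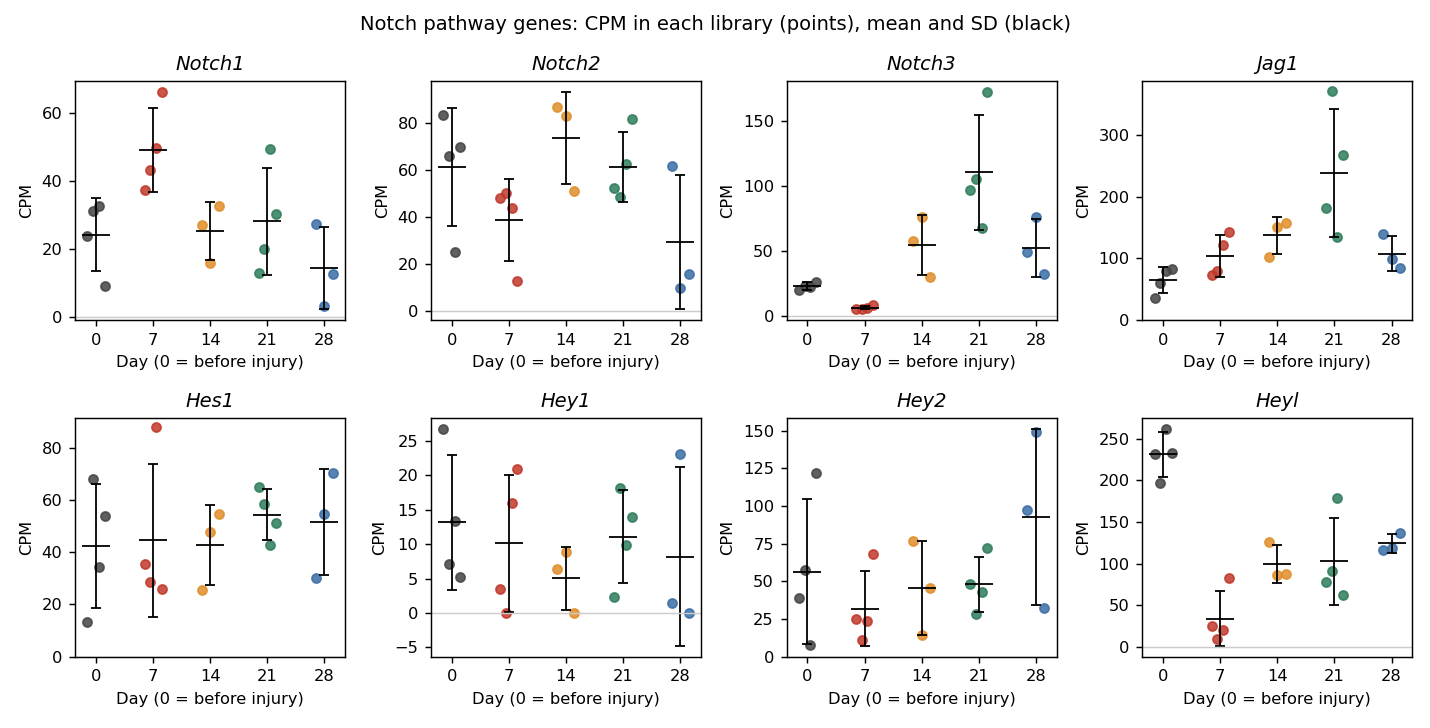
CPM of the 8 members (vertical axes, with a scale of their own in each panel) in each of the 18 libraries by day (horizontal axis), with 1 point per library and the mean and SD of each day in black. Notch3 drops to a mean of 6.20 CPM on day 7 and reaches 110 on day 21, Jag1 peaks at 239 on day 21, and the 4 day 0 libraries of Heyl lie above all others.

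On day 7, 2 of 8 members were called, Notch3 and Heyl, both lower. Over all genes tested, 19.8% were called on that day, 8.53% as lower and 11.3% as higher. The CPM of the day 7 libraries did not overlap those of day 0 for 3 members (Notch1, Notch3 and Heyl), against 23.3% of all genes. On day 14, 0 members were called by edgeR (6.22% of all genes), while 3 had an unadjusted p under 0.05 and DESeq2 called 1, Jag1. Notch3, Jag1 and Heyl did not overlap day 0 on that day (17.5% of all genes). On day 21, 2 members were called, Notch3 and Jag1, both higher, where 8.84% of all genes were called and 5.92% were higher. The same 3 members did not overlap day 0 on day 21 (16.1% of all genes) or on day 28 (9.95%). On day 28, 0 members were called by edgeR (1.34% of all genes) and 0 by DESeq2, and 2 had an unadjusted p under 0.05. The median log2 fold change of the 8 members against day 0 was -0.51, 0.04, 0.10 and -0.20 on days 7, 14, 21 and 28, where that of all genes was 0.07, 0.05, 0.07 and -0.01.

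Notch3, the receptor of vascular smooth muscle, stood at 19.4, 22.7, 22.4 and 26.2 CPM in the day 0 libraries and at 5.34, 5.39, 5.98 and 8.07 CPM in the day 7 libraries. The day 7 values rested on 3, 3, 3 and 5 counts. Every day 7 library lay below every day 0 library. On day 7, Notch3 was thus 3.56-fold lower (log2 fold change -1.83, standard error 0.47, edgeR adjusted p = 0.00670). On day 14 it was at 57.6, 75.9 and 30.0 CPM, on day 21 at 97.0, 105, 67.4 and 172 CPM, and on day 28 at 48.8, 76.1 and 32.0 CPM. The libraries of all 3 later days lay above all 8 libraries of days 0 and 7. The rise over day 0 passed the test on day 21, where Notch3 was 4.80-fold higher (log2 fold change 2.26, standard error 0.39, edgeR adjusted p = 0.000556). On day 14 the log2 fold change was 1.25 (edgeR adjusted p = 0.0771, and 0.0494 without day 14 replicate 3), and on day 28 it was 1.20 (edgeR adjusted p = 0.156).

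Compared directly with day 7, Notch3 was 8.45-fold higher on day 14 (edgeR adjusted p = 0.00138), 17.1-fold on day 21 (log2 fold change 4.10, standard error 0.46, edgeR adjusted p = 8.89e-06) and 8.16-fold on day 28 (edgeR adjusted p = 0.000167). Of all genes, 1.33%, 4.03% and 6.4% were higher than on day 7 on these days, against 1, 3 and 2 of the 8 members. The order of its mean levels ran from day 7 (6.20 CPM ± 1.28, SD, n = 4) through day 0 (22.7 ± 2.82, n = 4), day 28 (52.3 ± 22.3, n = 3) and day 14 (54.5 ± 23.1, n = 3) to day 21 (110 ± 44.2, n = 4). Days 28 and 14 overlapped nearly over their whole ranges, and 1 library of day 14 lay within the range of day 21.

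The contractile genes fell on day 7 as well, and their sum was still below day 0 on day 21, when Notch3 was above it. Taken as a ratio to the contractile sum, with log2 CPM at a prior count of 2, Notch3 was higher than on day 0 by 1.95, 2.69, 3.46 and 1.59 on days 7, 14, 21 and 28, while the log2 of the contractile sum itself was lower by 3.42, 1.61, 1.39 and 0.56. All libraries of each day lay above those of day 0 in that ratio. With 4 libraries against 4 or 3 an exact two-sided permutation test cannot go below p = 0.0286, which was reached on all 4 days (adjusted p = 0.0538 over 32 tests, and none of the 32 passed 0.05). Of 7 pericyte genes, a cell type that also carries Notch3, 6 were tested, and their sum was 1626 to 1944.5 CPM on day 0, 504 to 1313 on day 7, 1077 to 3075 on day 14, 1170 to 2373 on day 21 and 1275 to 1726 on day 28. On day 7, 3 of the 6 were lower, and on days 14 and 21 1 of them was higher. The higher gene was Rgs5, with means of 40.9, 82.4, 872, 640 and 99.1 CPM over the 5 days. Kcnj8, Abcc9, Cspg4 and Mcam had means below day 0 on both day 14 and day 21, and Pdgfrb above it, but none of them was called on these days. The median log2 fold change of the 6 tested genes was -0.55 on day 14 and -0.67 on day 21. Whether these genes and Notch3 came from the same cells was not tested.

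**Figure D2:**
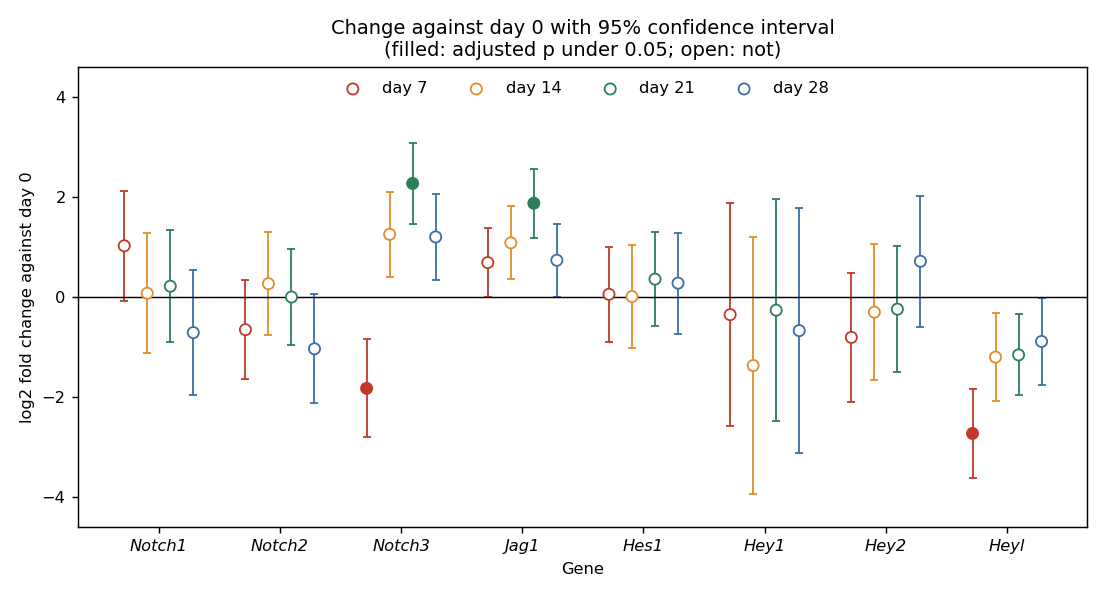
Log2 fold change of each member against day 0 on days 7, 14, 21 and 28 (vertical axis) with its 95% confidence interval from the edgeR fit, filled where the adjusted p is under 0.05. The filled points are Notch3 (-1.83) and Heyl (-2.73) on day 7 and Notch3 (2.26) and Jag1 (1.87) on day 21, and the intervals of Hey1 reach below -2 on all 4 days.

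Notch1, the receptor best known from endothelium, was at 23.8, 31.1, 32.8 and 9.19 CPM on day 0 and at 37.4, 43.1, 49.8 and 66.2 CPM on day 7. Each day 7 library lay above each day 0 library, but the log2 fold change of 1.02 did not pass the test (95% confidence interval -0.08 to 2.11, edgeR adjusted p = 0.206). On days 14, 21 and 28 the means were 25.2, 28.2 and 14.5 CPM, all overlapping day 0. Day 28 lay below day 7 without overlap, with a log2 fold change of -1.74 (edgeR adjusted p = 0.0586). Notch2, a receptor with broad expression, was at 61.0 CPM ± 24.95 (SD, n = 4) on day 0 and had means of 38.8, 73.4, 61.1 and 29.2 CPM on the later days. It overlapped day 0 on every day, with intervals of its log2 fold change from -1.64 to 0.33 on day 7, from -0.76 to 1.28 on day 14, from -0.96 to 0.95 on day 21 and from -2.13 to 0.05 on day 28. The 3 libraries of day 28 differed widely, at 61.8, 9.92 and 16.0 CPM. Without the first of these, replicate 1, Notch2 was called lower on day 28 (edgeR adjusted p = 0.0308, against 0.356 with it).

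Jag1, a membrane-bound ligand, was at 35.7, 61.0, 80.5 and 82.7 CPM on day 0, at 73.0, 79.1, 122 and 144 CPM on day 7 and at 102, 152 and 158 CPM on day 14. It was at 182, 371, 135 and 268 CPM on day 21 and at 139, 99.2 and 84.7 CPM on day 28. From day 14 on, every library lay above every day 0 library, while on day 7 the groups overlapped. Jag1 was 3.65-fold higher on day 21 (log2 fold change 1.87, standard error 0.33, edgeR adjusted p = 0.000785). On days 7, 14 and 28 its log2 fold changes of 0.68, 1.08 and 0.73 did not pass (edgeR adjusted p = 0.174, 0.0731 and 0.340), although that of day 14 passed without day 14 replicate 1 (edgeR adjusted p = 0.0476).

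Against day 7, Jag1 was 2.28-fold higher on day 21 (log2 fold change 1.19, edgeR adjusted p = 0.0248). That call was lost without day 7 replicate 1 (adjusted p = 0.0855) or 2 (0.0792) and without day 21 replicate 2 (0.106) or 4 (0.0600), all from edgeR. In order of its means, 65.0 CPM ± 21.8 (SD, n = 4) on day 0, 104 ± 34.0 (n = 4) on day 7, 108 ± 28.3 (n = 3) on day 28, 137 ± 30.4 (n = 3) on day 14 and 239 ± 104 (n = 4) on day 21, every pair of neighbouring days overlapped. As a ratio to the contractile sum Jag1 was above day 0 by 4.09, 2.70, 3.19 and 1.30 on the log2 scale on days 7, 14, 21 and 28, without overlap on any of them (exact two-sided permutation test, p = 0.0286 and adjusted p = 0.0538 on each day). Jag1 on day 7 stood higher in replicates 3 and 4 than in 1 and 2, and so did the sum of 16 endothelial genes, at 1284, 1409, 3626 and 3368 CPM in replicates 1 to 4. The part of endothelial RNA in the level of Jag1 was not tested.

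Heyl, a repressor and Notch target of smooth muscle, was at 232, 197, 262 and 234 CPM on day 0 and at 24.9, 8.98, 19.9 and 82.3 CPM on day 7. It was at 126, 86.5 and 87.4 CPM on day 14, at 78.1, 90.8, 179 and 62.8 CPM on day 21 and at 116, 119 and 137 CPM on day 28. The 14 libraries taken after injury lay below the 4 of day 0. Heyl was 6.65-fold lower on day 7 (log2 fold change -2.73, standard error 0.43, edgeR adjusted p = 4.77e-05). On days 14, 21 and 28 its log2 fold changes were -1.21, -1.16 and -0.90 and did not pass (edgeR adjusted p = 0.108, 0.0644 and 0.325).

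The day 21 difference in Heyl lay close to the threshold. It passed in a fit of 3 day 0 and 3 day 21 libraries that carry the same number in their labels, with that number as a block (edgeR adjusted p = 0.0169), under DESeq2 (adjusted p = 0.0387), and without day 7 replicate 2 (edgeR adjusted p = 0.0353), day 7 replicate 4 (0.0138) or day 21 replicate 3 (0.0195). The day 14 difference passed without day 7 replicate 4 (edgeR adjusted p = 0.0231), the library that held the highest Heyl value of day 7.

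Compared with day 7, Heyl was 2.97-fold higher on day 21 (log2 fold change 1.57, edgeR adjusted p = 0.0224) and 3.58-fold higher on day 28 (log2 fold change 1.84, edgeR adjusted p = 0.00672). The log2 fold change of 1.53 on day 14 did not pass (edgeR adjusted p = 0.0922, and 0.000674 without day 7 replicate 4). The call on day 21 was lost without day 7 replicate 1, 2 or 3 (edgeR adjusted p = 0.0775, 0.0768 and 0.0784) and without day 21 replicate 3 (0.127). The order of the means was 34.0 CPM ± 32.9 (SD, n = 4) on day 7, 100 ± 22.8 (n = 3) on day 14, 103 ± 52.3 (n = 4) on day 21, 124 ± 11.5 (n = 3) on day 28 and 231 ± 26.6 (n = 4) on day 0. Day 21 overlapped both day 14 and day 28, while day 7 lay just below day 14 and day 0 lay clear of day 28.

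Heyl and the contractile genes were both lowest on day 7. The ratio of Heyl to the contractile sum differed from day 0 by 0.39, 0.42, 0.14 and -0.31 on the log2 scale on days 7, 14, 21 and 28, and the groups overlapped on all 4 days (exact two-sided permutation tests, p = 0.171, 0.257, 0.629 and 0.0571). A p above the threshold does not show that the ratio was unchanged. The day 7 libraries had the same order in both, with 8.98, 19.9, 24.9 and 82.3 CPM of Heyl at contractile sums of 2895, 3596, 5655 and 10318 CPM. So did those of day 14, with 86.5, 87.4 and 126 CPM at sums of 11707, 12840 and 34564 CPM. On day 0, replicate 2 was lowest in both, with 197 CPM and a sum of 49964 CPM, and the order of the other libraries differed. On day 21, replicate 3 was highest in both, with 179 CPM and a sum of 31091 CPM, but the other 3 libraries ran the opposite way, with 62.8, 78.1 and 90.8 CPM at sums of 22272, 18279 and 13118 CPM. The 3 libraries of day 28 ran the opposite way too, with 116, 119 and 137 CPM at sums of 41607, 33864 and 32918 CPM.

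**Figure D3:**
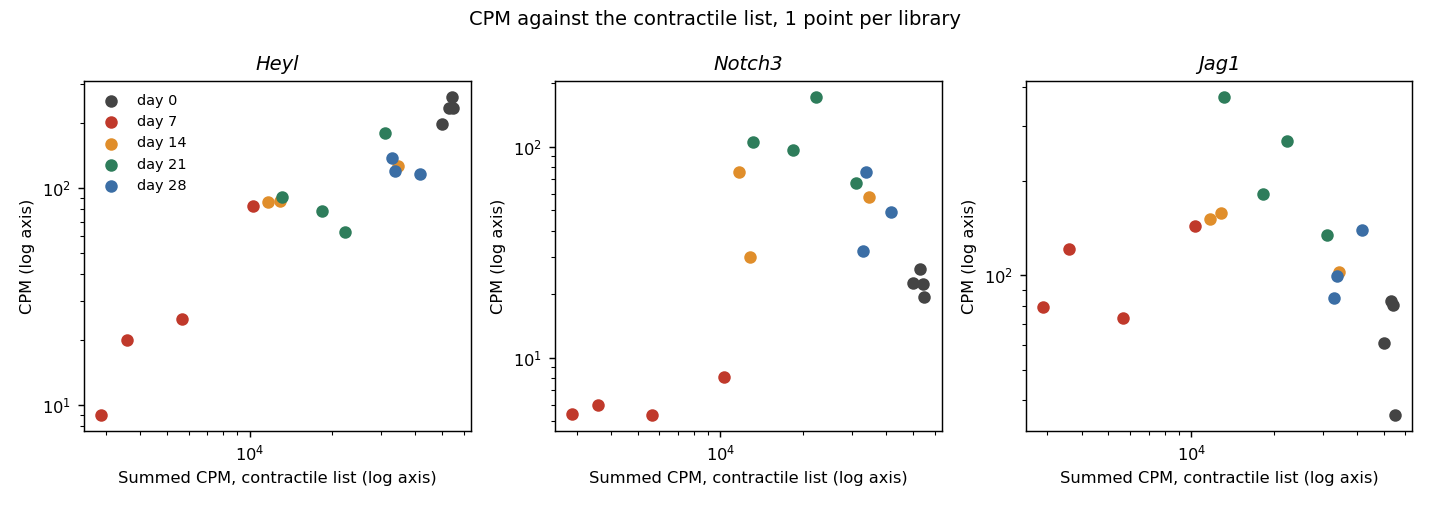
CPM of Heyl, Notch3 and Jag1 (vertical, log axes) against the summed CPM of the contractile list (horizontal, log axis), with 1 point per library coloured by day. Heyl runs from 8.98 CPM at a sum of 2895 to 197 CPM and more at sums of at least 49964, whereas the day 21 points of Notch3 and Jag1, at 67.4 to 172 and 135 to 371 CPM, lie above the day 0 points at a lower contractile sum.

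The other 3 targets were not called on any day. Hes1, a repressor with an oscillating level in many cell types, had means of 42.4, 44.5, 42.7, 54.4 and 51.7 CPM on days 0, 7, 14, 21 and 28. The lowest and highest of its 18 values, 13.4 and 87.7 CPM, fell on day 0 and day 7. Its log2 fold change on day 7 was 0.05 with an interval from -0.90 to 1.00, and on day 21 it was 0.35 with an interval from -0.59 to 1.29.

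Hey1, a target known from endothelium and early vessel development, was too sparse for a firm statement. It had no count in 1 library each of days 7, 14 and 28 and 26.8 CPM at most, and its intervals ran from -2.58 to 1.87 on day 7 and from -3.94 to 1.19 on day 14. Hey2, which with Hey1 marks arterial identity, was at 38.7, 57.4, 7.45 and 122 CPM on day 0 and at 97.7, 149 and 32.0 CPM on day 28. Its day 0 libraries spanned nearly the whole range of the later ones. The log2 fold change was -0.81 on day 7 (interval -2.10 to 0.47) and 0.71 on day 28 (interval -0.60 to 2.02). Against day 7, Hey2 on day 28 had a log2 fold change of 1.52 that did not pass (edgeR adjusted p = 0.129).

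In the ratio to the contractile sum, Notch1, Notch2, Hes1, Hey1 and Hey2 stood above day 0 by between 2.77 and 4.44 on the log2 scale on day 7, when the denominator itself was lower by 3.42. On day 28, when it was lower by 0.56, the differences of these 5 genes lay between -0.67 and 1.49, and all overlapped day 0 (exact permutation tests, p from 0.200 to 0.657).

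**Figure D4:**
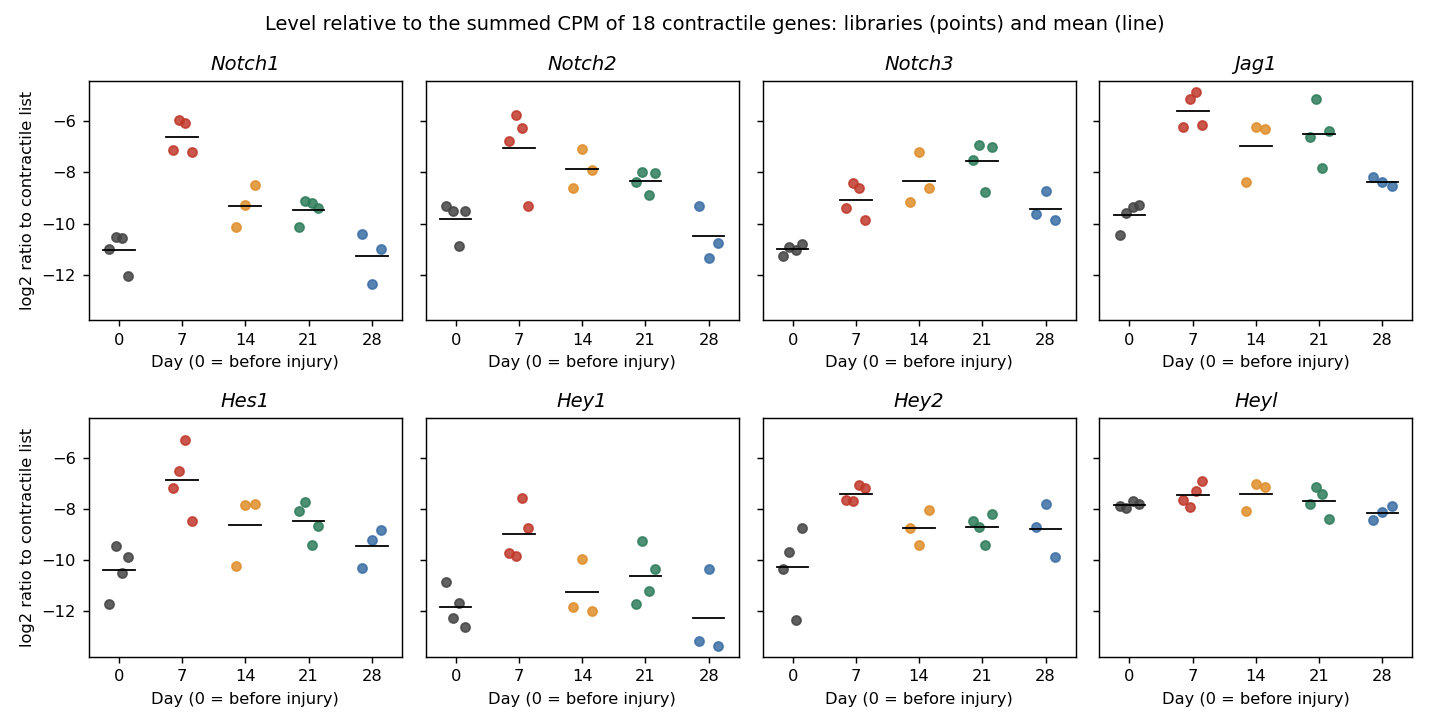
Log2 ratio of each member's CPM to the summed CPM of the 18 contractile genes (vertical axis) in each library by day (horizontal axis), with the mean as a line. The means of Heyl differ from day 0 by -0.31 to 0.42, while Notch3 and Jag1 lie above day 0 on all 4 days.

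Beyond the members, a list of 62 pathway genes (ligands, receptors, proteases, glycosyltransferases, co-factors and repressors) was followed, of which 48 were tested. On day 7, 9 of the 48 were higher and 1 lower, which is 20.8% against 19.8% of all genes tested. By day 14 the numbers were 2 higher and 0 lower (4.17% against 6.22% of all genes), by day 21 they were 3 and 1 (8.33% against 8.84%), and by day 28 they were 1 and 0 (2.08% against 1.34%). These shares lay near those of all genes. The median log2 fold change of the 48 genes was 0.36, 0.27, 0.32 and 0.14 on the 4 days, above the 0.07, 0.05, 0.07 and -0.01 of all genes. Of the genes named next, exons of Dll4, Notch4, Nrarp, Adam17, Aph1a and Ncor1 overlap those of genes on the opposite strand.

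Dll4, the endothelial ligand, was at 0 in all 4 libraries of day 0. Its day 0 libraries alone did not carry Dll4 past the filter on low counts, nor did those of Lfng, Nrarp, Notch4 and Adam17 below. These genes passed only with libraries taken after injury, where they were then called higher. Dll4 was at 12.5, 28.8, 53.8 and 72.6 CPM on day 7, at 14.4, 33.5 and 13.0 CPM on day 14, at 4.73, 28.3, 9.87 and 18.6 CPM on day 21 and at 0, 23.2 and 14.4 CPM on day 28. Only replicate 1 of day 28 overlapped day 0. Taking 3 counts per library as the limit that a count of 0 allows, Dll4 was at least 10.2-fold higher on day 7 (edgeR adjusted p = 0.000208), at least 4.94-fold on day 14 (0.00449) and at least 3.73-fold on day 21 (0.00587). On day 28 it was at least 3.04-fold higher (edgeR adjusted p = 0.0408), but 10 of 18 fits lacking a single library lost the call, such as that without day 28 replicate 2 (0.146). Such limits cover counting error only.

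Notch4, an endothelial receptor, rose 6.36-fold on day 7, from a mean of 10.03 to 65.2 CPM (edgeR adjusted p = 0.00762). Nrarp, a target that dampens Notch signalling, rose 10.9-fold, from 2.95 to 34.6 CPM (edgeR adjusted p = 0.0150, and 0.0653 without day 7 replicate 4). Lfng, a glycosyltransferase that changes how receptors respond to their ligands, rose 11.7-fold, from 3.84 to 48.8 CPM (edgeR adjusted p = 0.00312), although its day 7 replicate 4, at 4.84 CPM, lay within the range of day 0. The day 0 values rested on 0, 3, 2 and 4 counts for Nrarp and on 0, 5, 1 and 6 for Lfng. With so few counts on day 0, the size of both folds is uncertain. Notch4 was at 28.5, 23.4, 106 and 103 CPM in day 7 replicates 1 to 4, and Nrarp at 5.34, 21.6, 43.9 and 67.8 CPM. For Dll4, Notch4 and Nrarp alike, replicates 3 and 4 held the highest values, and these were the replicates with the highest endothelial sum. Of the 16 endothelial genes, 9 were higher and 1, Vwf, was lower on day 7 than on day 0. Their sum was 1006 to 1619 CPM on day 0, 1284 to 3626 on day 7, 1692 to 1763 on day 14, 1266 to 2573 on day 21 and 1353 to 1584 on day 28. Pecam1 and Cdh5, both of this list, had counts in all 18 libraries, while Kdr and Robo4 had means of 0.299 and 0.373 CPM on day 0. The part of endothelial RNA in the rise of Dll4, Notch4 and Nrarp was not tested.

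The proteases that cut the receptors outside the membrane were higher on day 7. Adam10 rose 2.42-fold, from 56.7 to 137 CPM (edgeR adjusted p = 0.00209), and Adam17 rose 4.18-fold, from 20.3 to 86.5 CPM (edgeR adjusted p = 0.00123). Adam10 was lower again on day 21 and on day 28 than on day 7, by log2 fold changes of -1.20 and -1.12 (edgeR adjusted p = 0.0102 and 0.0177). Adam17 was also called on day 14 (log2 fold change 1.69, edgeR adjusted p = 0.0242) and day 21 (1.41, 0.0441). The day 14 call was lost without 1 of 5 libraries (edgeR adjusted p = 0.0616, 0.0759 and 0.0544 without day 0 replicates 1, 3 and 4, and 0.0672 and 0.197 without day 14 replicates 2 and 3). The day 21 call was lost in 11 of 18 such fits (edgeR adjusted p = 0.118 without day 21 replicate 4) and with the shared label number as a block (0.131).

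Aph1a, a subunit of the gamma-secretase that makes the inner cut, rose 2.01-fold on day 7 (edgeR adjusted p = 0.0262), but not without day 0 replicate 2 or 4 (0.0856 and 0.0942) or without day 7 replicate 1, 2 or 3 (0.0913, 0.0915 and 0.0831). Ncstn and Psenen, further subunits, were not called on any day against day 0. Itch, a ubiquitin ligase that acts on Notch, rose 2.07-fold on day 7 (edgeR adjusted p = 0.0349), a call lost in 5 of 18 fits without 1 library (0.207 without day 7 replicate 3). Rbpj, the DNA-binding partner, stayed within 72.3 to 86.9 CPM in its 5 daily means and was not called, with edgeR adjusted p of at least 0.876.

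Among the general co-repressors on the list, which act far beyond Notch, Hdac1 rose 3.46-fold on day 7, from 276 to 958 CPM (edgeR adjusted p = 1.28e-05), and was 1.91-fold higher on day 21 (edgeR adjusted p = 0.0182, but 0.0722 without day 0 replicate 3 and 0.0585 without day 21 replicate 2). Ncor1 fell from 120 to 49.8 CPM on day 7 (log2 fold change -1.27, edgeR adjusted p = 0.0174, but 0.0545 without day 0 replicate 1 and 0.0550 without day 7 replicate 1). Tle5 fell on day 21 from 760 to 384 CPM (log2 fold change -0.98, edgeR adjusted p = 0.0116). The 16 macrophage genes were all higher on day 7 too, and the part of these cells in the levels of Adam17, Hdac1 and the other risen genes was not tested.

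**Figure D5:**
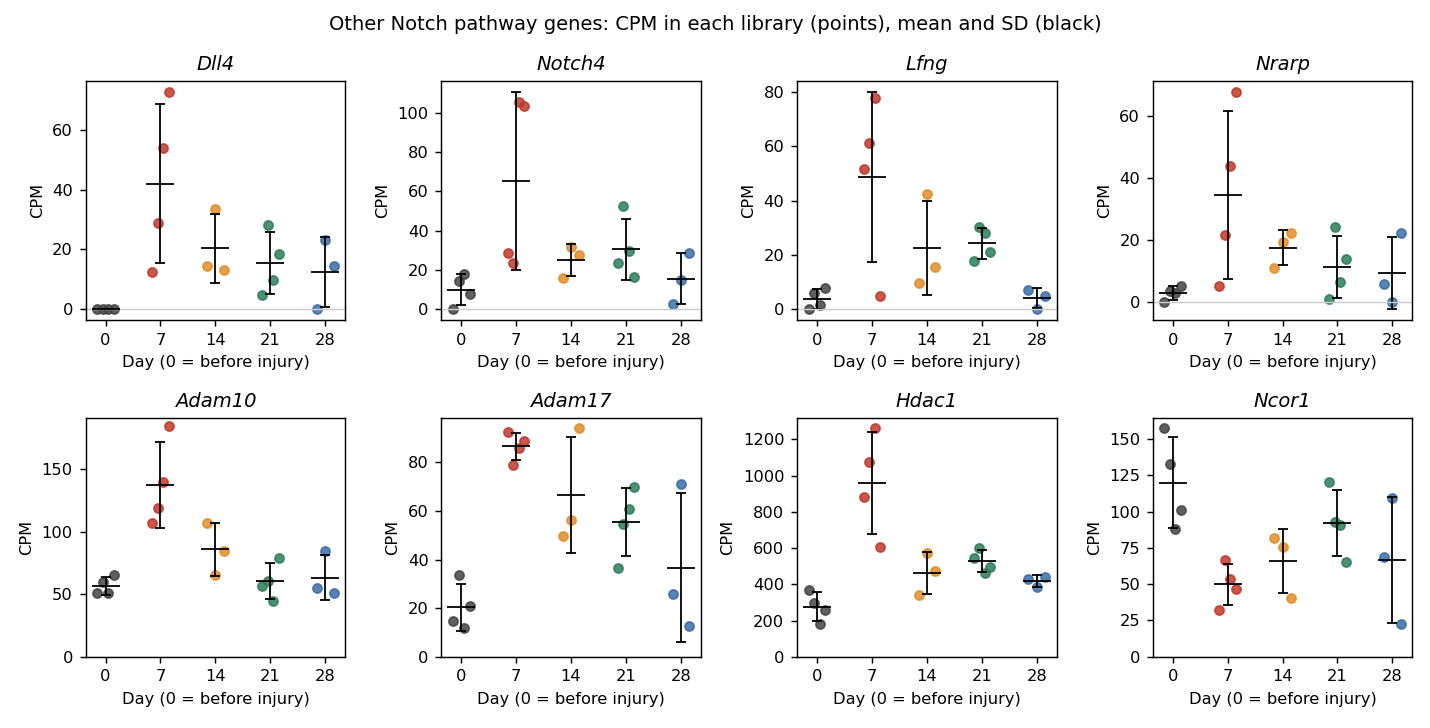
CPM of 8 other pathway genes (vertical axes) in each library by day (horizontal axis), with 1 point per library and the mean and SD of each day in black. Dll4 is at 0 in all 4 day 0 libraries and at 12.5 to 72.6 CPM on day 7, and Notch4, Nrarp and Dll4 share their highest day 7 libraries.

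Of the remaining marker lists, fibroblast genes summed to 3847 to 4933 CPM on day 0, 2001 to 3300 on day 7, 4813 to 5651 on day 14, 4422 to 6741 on day 21 and 3170 to 3854 on day 28. Of the 12 genes, 2 were higher and 6 lower on day 7. Schwann cell genes, of which 4 of 7 were tested, had sums between 4.47 and 258 CPM over all libraries.

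The genes whose log2 CPM followed each member most closely over the 18 libraries were also determined among the 10311 other genes tested. For Heyl they were Kcnab1, a subunit of potassium channels (Pearson r = 0.95), Myh11, the smooth muscle myosin heavy chain (0.94), and Lims2, a protein of focal adhesions (0.94). These correlations remained at 0.82, 0.81 and 0.80 when each library was taken as its deviation from the mean of its day. For Notch3 they were Cpxm2 (r = 0.89), Lbh (0.88) and Kank4 (0.87), and the correlations of the deviations were only 0.28, 0.43 and 0.19. Notch3 thus resembled these genes in its course over days more than in its spread within days. For Jag1 they were the zinc transporter Slc39a13 (r = 0.89), C1qtnf5 (0.85) and the unconventional myosin Myo10 (0.83), with 0.68, 0.60 and 0.77 for the deviations.

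The members not called had their closest genes at r between 0.74 and 0.89. Notch1 was most like Canx, Sec61a1 and Ube2a, Notch2 like Tsc22d2, Mettl21a and Foxn2, Hes1 like Tmem234, Jade1 and Phf8, Hey1 like Tmem186, Akap12 and Hmgn5, and Hey2 like Synm, an intermediate filament protein of muscle, Prr15 and Agap3. The libraries share days and depth, and at counts this low such likeness is a description only. Among the members themselves, Notch3 and Jag1 had an r of 0.59 and 0.38 for the deviations, and Notch3 and Heyl had 0.43 and -0.10.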

How the data were processed

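RNA of 18 libraries of laser-dissected mouse carotid was sequenced by a 3′ method (MACE). The authors removed duplicates by molecular identifiers and quantified the reads with Salmon 1.9.0 on mm39, per the labels' processing notes and the paper. They deposited estimated counts (expected counts) per gene, all of them whole, and normalised values (a signal scaled by the authors with DESeq2 1.36.0). The annotation release is not given in the sources used here.

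Libraries were grouped by the day in their labels. Totals were 440675 to 878310 counts (median 659166), and all pairs of replicates differed by more than sampling noise. Counts were rounded and fitted in R 4.3.3 with edgeR 4.0.16 (filterByExpr, TMM, quasi-likelihood test, day as the only term, all 18 libraries) with Benjamini-Hochberg adjustment over 10312 genes. The likeness between genes was computed on log2 CPM with a prior count of 2. The normalised signal served only alternatives, with limma 3.58.1 on log2(value + 1) and for the likeness between genes. DESeq2 1.42.0 was another alternative. Ratios to the contractile list used log2 CPM with a prior count of 2 and exact permutation tests. The steps were tested on simulated data.

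Named were the 8 members, the pathway list genes called against day 0 on any day, and the 3 genes most correlated with each member. The members and lists were chosen with earlier results of these data known. Values named for Rbpj, Ncstn, Psenen, Rgs5 and single markers fall outside the rule and were chosen after they were seen. Alternatives varied the tool, normalization, filter, libraries in the fit, input values, blocks, contractile list and prior count, and left out each library in turn. Promoters and positions were read with pysam 0.24.0 from GRCm39 and GENCODE vM39. Protein sequences were not used here, and 1 promoter and 1 gene are not reported here.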

Additional observations from a re-analysis of the deposited data

Results flagged for a closer look

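Samples that stood apart from the other libraries of their day by Dixon's criterion were sought in 74 groups of 4 libraries, and 4 were found, where chance gives about 1 in 20. Hes1 on day 7 was at 87.7 CPM in replicate 3 and at 35.6 in the nearest other library, a gap of 0.842 of the range. Aph1a on day 7 was at 58.1 CPM in replicate 4 against 91.7 in the nearest (0.951 of the range), and Tle5 on day 7 was at 689 CPM in replicate 4 against 475 (0.847). The summed CPM of the fibroblast list on day 21 was 6741 in replicate 3 against 4500.0 (0.966).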

How the results depend on the processing

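Across tools, normalizations, filters and libraries left out, the calls of Notch3 on day 7 (log2 fold change -2.0 to -1.63), on day 21 (1.95 to 2.42) and against day 7, of Jag1 on day 21 (1.38 to 2.04) and of Heyl on day 7 (-3.68 to -2.46) were kept in every alternative run. With about 440675 to 878310 counts per library, low genes such as Hey1 are limited by depth.

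The number of members called on day 14 against day 0 was 1 with DESeq2 or only the days compared, 2 with no filter or the replicate block, and 0 to 1 with 1 library left out. On day 28 it was 0 to 1, on day 14 against day 7 it was 2 with DESeq2, no filter or limma on the normalised values and 1 to 2 with 1 library left out, and on day 21 against day 7 it was 1 to 3. The cause was not tested. For the pathway list, 6 genes were called on day 7 with only the days compared. Aph1a lost its call there, and Dll4, Lfng and Nrarp did not pass the low-count filter of that fit. Dll4 also did not pass it with only the days compared on days 14, 21 and 28, or with the shared label number as a block. The member Hey1 passed it in none of the fits of only the days compared against day 0, nor with that block. Numbers of members called in those fits rest on the other members. Genes missing from a fit are not counted as lost calls below. On day 14, 4 pathway genes were called with DESeq2, 1 with only the days compared and 1 to 3 with 1 library left out. On day 21 there were 2 with the shared label number as a block and 2 to 5 with 1 library left out, and on day 28 2 with DESeq2 or no filter, 0 with only the days compared and 0 to 3 with 1 library left out.

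Replicate numbers did not pair the libraries (median correlation of deviations -0.01 over 33 pairs, range -0.13 to 0.20). With them as a block, Notch3 and Jag1 were called on day 14 (edgeR adjusted p = 0.0499 for each) and Itch on day 7 was not (0.0545). The 3 pairs of a shared label number had a median correlation of 0.04.

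Of 406 gene results under other settings, 373 kept direction and side of the threshold, 6 lost and 13 gained a call, and 14 changed direction. Leaving out 1 library gave 951, 49, 8 and 36 of 1044. All changes of direction were in log2 fold changes that were not called: Notch1 on day 14 (replicate block, -0.016), Hes1 on day 14 (replicate block, -0.032), Hey2 on day 14 (replicate block, 0.34) and day 21 (limma 0.23, replicate block 0.028, shared number block 0.23), and Notch2 on day 21, which is near 0 (DESeq2 0.0056, RLE factors 0.0038, library totals 0.0040, no filter 0.0019, only the days compared 0.0010, limma 0.10, replicate block 0.088, shared number block 0.38). With 1 library left out they ranged from -0.21 to 0.29 for Notch1 on day 14 and -0.25 to 0.47 on day 21, from -0.26 to 0.18 for Notch2 on day 21, from -0.54 to 0.37, -0.28 to 0.33 and -0.015 to 0.60 for Hes1 on days 7, 14 and 28, from -1.03 to 0.24 and -0.65 to 0.33 for Hey1 on days 7 and 21, from -0.88 to 0.38 and -0.61 to 0.45 for Hey2 on days 14 and 21, and from -0.15 to 0.25 for Jag1 on day 28 against day 7. Of 64 ratios, the one of Hey1 on day 14 reversed (-0.015 with a prior count of 0.5). With 1 library left out it ranged from -0.062 to 0.97, and from -1.40 to 0.11 on day 28, that of Notch1 on day 28 from -0.65 to 0.32 and that of Heyl on day 21 from -0.047 to 0.38.

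Settings other than a left-out library that ended a call were only the days compared for Heyl on day 21 against day 7 (edgeR adjusted p = 0.0590), no filter and only the days compared for Aph1a on day 7 (0.0775 and 0.0600), limma for Dll4 on day 28 (0.147), the replicate block for Itch on day 7 (given above) and the shared label number block for Adam17 on day 21 (edgeR adjusted p = 0.131). Heyl gained a call on days 14 and 21 against day 0 with no filter (edgeR adjusted p = 0.0185 and 0.00841) and with only the days compared (0.0104 and 0.0159), and on day 14 against day 7 with DESeq2 (0.0291), no filter (0.00259) and limma (0.0368). Jag1 gained one on day 14 with DESeq2 (0.0474) and no filter (0.0287).

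On the deposited normalised values the median of all genes was shifted by 0.10 on day 7 against day 0 and by -0.13 on day 28 against day 7. The other scalings shifted it by less than 0.1.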
